A study of Mus musculus with 2 samples.

Results

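Total RNA of the hippocampus of aged mice was examined for 10 genes of acetylcholine signalling, chosen by name and not by level. They are the 5 muscarinic receptor genes Chrm1 to Chrm5, the nicotinic receptor subunit genes Chrna4, Chrna7 and Chrnb2, and the enzyme genes Ache and Chat. These are 10 of 55536 annotated genes, of which 22028 are protein-coding. The animals were female B6CASTF1/J mice, an F1 cross of the strains C57BL/6J and CAST/EiJ, aged 18 to 20 months and untreated as far as the labels say. Tissue is labelled as a layer of the hippocampus, and 300 ng of RNA went into each library. Both libraries belong to 1 group and are called replicates 1 and 2, after their labels. They carry separate biosample labels but the same donor label, which leaves it unclear whether they are 2 animals, so the spread between them may be technical. With no second group there is no contrast and no p-value, and the values show how much of each transcript the tissue held and how closely both libraries matched.

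Acetylcholine reaches the hippocampus mainly along axons of neurons in the medial septum and diagonal band, whose cell bodies lie outside it. There it acts on muscarinic receptors, which signal through G proteins, and on nicotinic receptors, which are cation channels built of subunits. Choline acetyltransferase, encoded by Chat, makes the transmitter in the cholinergic neuron, and acetylcholinesterase, encoded by Ache, breaks it down in the synaptic cleft. Chrm1, Chrm3 and Chrm5 couple to Gq proteins, which activate phospholipase C, and Chrm2 and Chrm4 couple to Gi and Go proteins, which inhibit adenylyl cyclase.

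Gene-assigned expected counts, which are estimated read numbers, summed to 35358099 in replicate 1 and 36307276 in replicate 2. Levels are given as TPM, an abundance that sums to a fixed total per library and corrects for the length of the annotated transcript and so allows genes to be compared. The tables came in a layout with the column names of RSEM, used here unless stated, and in one with those of kallisto. Markers of excitatory neurons had summed levels of 2615 and 2453 TPM in replicates 1 and 2. All 5 were detected (TPM of at least 1 in both libraries), as were all 4 markers each of CA1, CA3 and the dentate gyrus. The same held for all 5 neocortical markers, all 5 thalamic markers and 57.8% of protein-coding genes. Detection therefore does not by itself place a region in the sample. Several marker lists differed between the libraries by scaled counts. All 7 meningeal fibroblast markers were higher in replicate 2, 6 of them over 2-fold, with a median log2 ratio of replicate 2 over replicate 1 of 1.08. Choroid plexus markers were lower there in 4 of 5 cases (median -0.97). All 5 erythroid markers (0.66) and 4 of 5 mural cell markers (0.58) were higher, and all 5 oligodendrocyte markers were lower (-0.36).

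Transcripts of 9 of the 10 genes were detected, meaning that TPM reached 1 in each library. The same held for 25.9% of all genes and 57.8% of protein-coding genes. Chat was the exception. From high to low the order was Chrm1, Ache, Chrna7, Chrm3, Chrm4, Chrnb2, Chrna4, Chrm5, Chrm2 and Chat. Each of the 9 neighbouring pairs in this order differed by more than the larger SD of the pair, and the libraries of neighbours did not overlap. The smallest step was from Chrna7 to Chrm3, at 0.59 TPM against an SD of 0.255 TPM. This step was reversed in the kallisto layout, in both libraries, and the authors' TPM bounds for these genes overlapped (15.8 to 18.1 for Chrna7 and 15.3 to 18.2 for Chrm3 in replicate 1). Their order therefore cannot be given. The next smallest step, from Chrm4 to Chrnb2, was 0.69 TPM against an SD of 0.156 TPM and had the same direction in both layouts. The authors' bounds overlapped here as well (11.7 to 14.1 for Chrm4 and 11.8 to 12.9 for Chrnb2 in replicate 1), so this order is also uncertain. All other places were the same in both layouts.

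**Figure D1:**
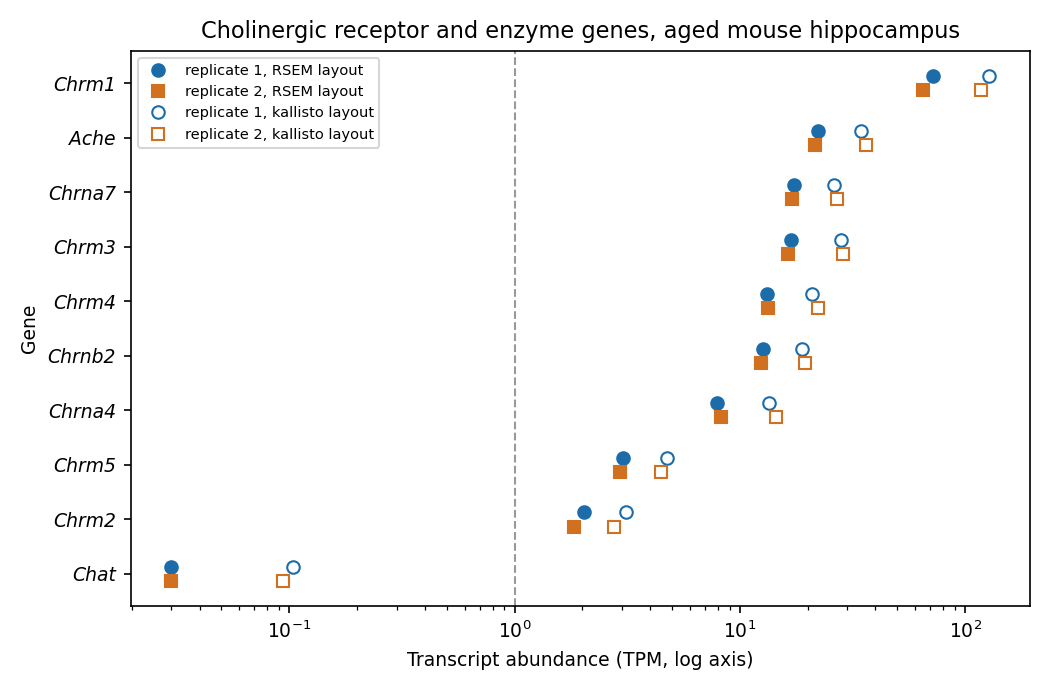
Level of each of the 10 genes in TPM on a log axis, with 1 point per library and layout; the dashed line marks the detection minimum of 1 TPM. Chrm1 stands highest in both libraries, 7 genes lie between Chrm1 and Chrm2 at 2.93 to 22.3 TPM in the RSEM layout, and Chat lies at 0.03 TPM.

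Chrm1 was the most abundant of the muscarinic receptor genes. It encodes the main Gq-coupled muscarinic receptor of forebrain principal neurons and lies on chromosome 19 at chr19:8663789-8683587 (mm10, plus strand, ENSMUSG00000032773.9). Its levels in replicates 1 and 2 were 71.9 and 65.0 TPM, from 8383 and 8080 counts, and the 2 values together gave 68.4 ± 4.89 TPM (SD, n = 2). That placed it 1296th of 22028 protein-coding genes. The authors' bounds were 68.4 to 71.7 TPM and 61.8 to 65.1 TPM, so the deposited TPM of replicate 1 lay just above its own upper bound. In the kallisto layout Chrm1 stood at 127.5 and 117 TPM.

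The 5 muscarinic genes are paralogs, and a stretch of 60 coding bases is shown for each to let the family be compared. It begins just before the codons of the aspartate, arginine and tyrosine triplet that marks the inner end of the third transmembrane helix in many G protein-coupled receptors, and these 9 bases are in capitals. Sequences run 5′ to 3′ on the coding strand and come from the GENCODE M21 transcripts of mm10.
Chrm1: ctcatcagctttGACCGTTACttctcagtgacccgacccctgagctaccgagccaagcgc
Chrm3: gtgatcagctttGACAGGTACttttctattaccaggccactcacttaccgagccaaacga
Chrm5: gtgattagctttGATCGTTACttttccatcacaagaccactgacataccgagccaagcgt
Chrm2: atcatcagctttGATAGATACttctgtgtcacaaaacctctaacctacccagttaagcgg
Chrm4: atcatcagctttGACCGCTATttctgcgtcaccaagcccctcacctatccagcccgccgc
They lie at chr19:8678284-8678343 (plus strand), chr13:9878462-9878521 (minus), chr2:112480344-112480403 (minus), chr6:36523555-36523614 (plus) and chr2:91927618-91927677 (plus), in that order. Each lies within 1 coding exon, and in all 5 genes the whole coding sequence of the leading transcript lies in 1 exon. All 5 stretches share the same base at 32 of the 60 positions. Among the Gq-coupled genes the pairs match at 44 positions (Chrm1 and Chrm3), 46 (Chrm1 and Chrm5) and 48 (Chrm3 and Chrm5), and the Gi-coupled pair Chrm2 and Chrm4 matches at 44. Across these classes pairs match at between 39 positions, for Chrm4 and Chrm5, and 44, for Chrm1 and Chrm4. Even the closest pair therefore differs at several bases within this short stretch.

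The other Gq-coupled receptor genes were lower than Chrm1. Chrm3, which also drives smooth muscle contraction and gland secretion in the periphery, is a gene of chromosome 13 (chr13:9875486-10360847, minus strand, ENSMUSG00000046159.16). It was at 16.8 and 16.4 TPM in replicates 1 and 2 (16.6 ± 0.255 TPM), from 1654 and 1676 counts. Chrm5, best known from dopamine neurons of the midbrain, lies at chr2:112479171-112480769 (minus strand, ENSMUSG00000074939.3). It was at 3.03 and 2.93 TPM (2.98 ± 0.0707 TPM), from 116 and 120 counts. Both genes varied little between libraries, and their values in the 2 libraries lay closer together than those of Chrm1. Chrm1 exceeded Chrm3 4.12 ± 0.231-fold and Chrm5 23.0 ± 1.10-fold, and 4.32 ± 0.336-fold and 26.6 ± 0.482-fold in the kallisto layout.

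Of the Gi-coupled receptor genes, Chrm4 was the higher. It is also prominent in striatal projection neurons and lies at chr2:91927249-91928688 (plus strand, ENSMUSG00000040495.4). Its level was 13.2 TPM in replicate 1 and 13.3 TPM in replicate 2 (13.2 ± 0.120 TPM), from 450 and 487 counts. Chrm2, the cardiac muscarinic receptor and an autoreceptor on cholinergic axons, is annotated at chr6:36388084-36528414 (plus strand, ENSMUSG00000045613.9). It was the lowest of the detected genes at 2.03 and 1.83 TPM (1.93 ± 0.141 TPM), from 289 and 257 counts. Chrm1 exceeded Chrm4 5.17 ± 0.417-fold and Chrm2 35.5 ± 0.0625-fold. In the kallisto layout the folds were 5.68 ± 0.594 and 41.5 ± 1.16, so the fold over Chrm2 depends on the layout. The SD is the spread between libraries and leaves out the counting error of Chrm2. The annotated models of Chrm4 and Chrm5 hold coding bases only, 1440 and 1599 of them, so their TPM is per coding length, whereas that of the other genes is per length of models with untranslated ends.

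Summed over the 5 genes, muscarinic receptor transcripts came to 106.9 TPM in replicate 1 and 99.5 TPM in replicate 2. Chrm1 took 66.3 ± 1.38% of this sum, Chrm3 16.1 ± 0.572%, Chrm4 12.8 ± 0.769%, Chrm5 2.89 ± 0.0782% and Chrm2 1.87 ± 0.0421%. Each of these shares differed from every other by more than the spread between libraries. In the kallisto layout the share of Chrm1 was 68.0 ± 1.69%. Gq-coupled receptor transcripts exceeded Gi-coupled ones 5.80 ± 0.336-fold, at 91.7 against 15.2 TPM in replicate 1 and 84.3 against 15.2 TPM in replicate 2. Most of that ratio came from Chrm1, and without it the ratio was 1.29 ± 0.0196. In the kallisto layout the ratios with and without Chrm1 were 6.34 ± 0.468 and 1.34 ± 0.0257.

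The nicotinic subunit genes are distinguished by a pair of adjacent cysteines that alpha subunits carry in the loop closing over the acetylcholine site and that beta subunits lack. Chrna7 forms channels on its own and these are highly permeable to calcium, whereas Chrna4 assembles with Chrnb2 into the high-affinity nicotine site of the brain. The stretch of 60 coding bases around the pair is shown for both alpha genes with the cysteine codons in capitals, and for Chrnb2 the stretch that begins at the aligned codon.
Chrna4: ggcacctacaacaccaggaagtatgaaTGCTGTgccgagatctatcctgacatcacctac
Chrna7: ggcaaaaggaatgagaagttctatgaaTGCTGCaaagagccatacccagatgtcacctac
Chrnb2: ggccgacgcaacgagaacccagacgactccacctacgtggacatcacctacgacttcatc
These are chr2:181029251-181029310, chr7:63106131-63106190 and chr3:89761320-89761379 of mm10, all read on the minus strand from GENCODE M21 transcripts. The pair begins at codon 227 of 629 in Chrna4 and at codon 212 of 502 in Chrna7, counted from the start codon. Chrnb2 has 0 adjacent cysteine codons in its 501, and in the alignment the pair falls in a gap of that gene.

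Chrna7 was the highest of the nicotinic genes. It lies at chr7:63098692-63212569 (minus strand, ENSMUSG00000030525.8) and was at 17.4 and 17.1 TPM (17.2 ± 0.198 TPM), from 888 and 929 counts. Chrnb2, at chr3:89746195-89764632 (minus strand, ENSMUSG00000027950.7), was at 12.65 and 12.4 TPM (12.5 ± 0.156 TPM), from 2024 and 2119 counts. Its 3′ end overlaps the RNA-editing gene Adar on the opposite strand, which had 5961 and 6294 counts. The strand setting of the counting is not given in the sources used here, so reads of the shared stretch cannot be told apart. Chrna4, at chr2:181018380-181043546 (minus strand, ENSMUSG00000027577.14), was at 7.92 and 8.29 TPM (8.11 ± 0.262 TPM), from 812 and 911 counts. No library of any of these genes overlapped with a library of another.

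The sum of these 3 subunits hardly differed between libraries, at 37.9 and 37.8 TPM. Chrna7 took 45.5 ± 0.413% of it, Chrnb2 33.1 ± 0.331% and Chrna4 21.4 ± 0.743%. Chrnb2 thus exceeded its partner Chrna4 1.55 ± 0.0692-fold, and Chrna7 exceeded Chrna4 2.13 ± 0.0930-fold. In the kallisto layout the share of Chrnb2 was 32.0 ± 0.200%. There Chrnb2 exceeded Chrna4 1.37 ± 0.0427-fold and Chrna7 exceeded Chrna4 1.91 ± 0.0638-fold. The muscarinic sum was 2.73 ± 0.132 times the sum of these nicotinic genes, and 3.02 ± 0.186 times in the kallisto layout.

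The enzyme genes lay at opposite ends of the range. Ache, at chr5:137287519-137294466 (plus strand, ENSMUSG00000023328.14), was the second most abundant of the 10 at 22.3 and 21.5 TPM (21.9 ± 0.559 TPM), from 1279 and 1336 counts. The coding part of the last exon of its leading transcript Ache-201 is shown because it encodes the carboxy-terminal peptide by which the enzyme attaches to its anchors, the products of Prima1 and Colq. The codon of the cysteine near its end is in capitals.
Ache: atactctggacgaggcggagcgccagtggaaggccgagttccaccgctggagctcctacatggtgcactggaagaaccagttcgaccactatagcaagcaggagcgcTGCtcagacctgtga
This stretch of 122 bases is chr5:137294117-137294238 of mm10, plus strand, from GENCODE M21. Ache-201 was the leading transcript in both libraries and both layouts, and Ache-202 has the same coding bases.

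Chat was at the limit of what these libraries can show. It lies at chr14:32408203-32465989 (minus strand, ENSMUSG00000021919.8) and had 2 counts and 0.03 TPM in each library. Both fall under a floor of 3 counts, which corresponds to 0.0426 TPM in replicate 1 and 0.0516 TPM in replicate 2, so no fold is given. Kallisto-layout counts were 5.01 and 2.00. The authors' posterior mean TPM was 0.96 and 0.92, with bounds from 0.245 to 1.83 and from 0.249 to 1.76, which lie above the deposited TPM. The level of Chat is therefore low in both estimates, and its size depends on which is read. Slc18a3, the vesicular acetylcholine transporter gene that lies in intron 1 of Chat-201 on the same strand, had 1 and 3 counts.

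The libraries matched closely for the detected genes. Scaled by TMM, which sets the libraries to a common level over most genes, 0 of the 9 differed over 2-fold between libraries. That is near the share over all genes, 0.384% of the 14307 whose mean count reached 50, and so is not particular to the 9. The median log2 ratio of replicate 2 over replicate 1 was 0.03, beside 0.00 for the 18350 genes whose mean count reached 10. The median size of the log2 ratio was 0.0318 for these genes and 0.0703 for all genes above the same minimum of 50. By scaled counts 6 genes were higher in replicate 2 and 3 were lower, whereas by TPM, which shifts the median of all genes by -0.06 on the log2 scale, 2 were higher (Chrm4 and Chrna4) and 7 were lower.

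Chrm1 was the gene whose libraries differed beyond counting error. Its scaled count in replicate 2 was 0.941-fold that of replicate 1 (exact 95% binomial interval 0.913 to 0.970, counting error only), a log2 ratio of -0.09. Chrm1 had the most counts of the detected genes and so the narrowest interval. How many of all genes differed beyond counting error was not computed, so the call cannot be said to be particular to Chrm1. The difference is small beside the library-wide spread, since the central 95% of genes above the minimum count had log2 ratios from -0.35 to 0.41. In bulk tissue, fewer cells of a type and less RNA per cell cannot be told apart. Marker lists of hippocampal neurons did not share 1 direction. The median log2 ratio was 0.01 for dentate granule cells and 0.02 for GABAergic interneurons, with 4 of 6 interneuron markers higher in replicate 2. Of the CA1 markers 4 of 4 were detected and 3 of 4 were lower in replicate 2 (median log2 ratio -0.09, sums of 206.1 and 191.5 TPM), as were 3 of 4 CA3 markers (-0.07, 54.6 and 49.2 TPM) and 3 of 5 excitatory neuron markers (-0.03). These TPM sums include the shift of all genes in TPM given above. Their part in the difference was not tested.

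The other intervals included 1. Chrm2 had the ratio farthest from it, at 0.868 (0.731 to 1.03), and Chrna4 the highest, at 1.10 (0.996 to 1.21). Chrm5, the gene with the fewest counts among those detected, had the widest interval, from 0.776 to 1.32 around 1.01. Chrm4 was at 1.06 (0.928 to 1.20), and Chrm3, Chrna7, Chrnb2 and Ache lay between 0.989 and 1.02. None of these differences could be separated from counting error. Differences in TPM were not the same as those in scaled counts. Ache, for example, was lower in replicate 2 by TPM and 1.02-fold by scaled counts, whereas the log2 ratio of Chrm2 was -0.20 by scaled counts and -0.15 by TPM. The share of TPM taken by misc_RNA, a class of structural RNAs, was 35.7% in replicate 1 and 38.1% in replicate 2, and its part in this was not tested.

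**Figure D2:**
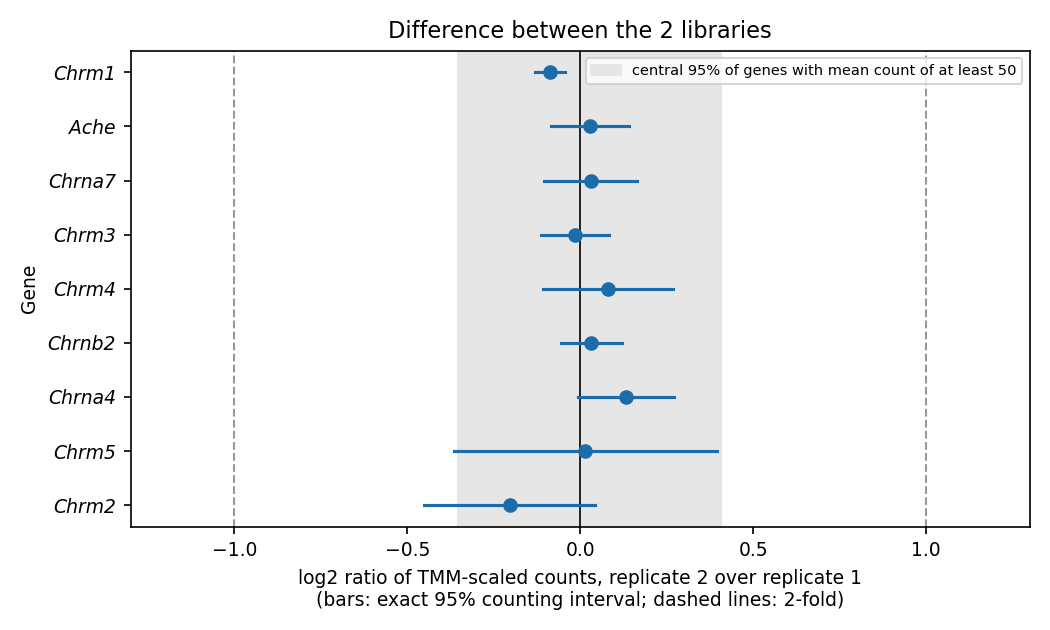
Log2 ratio of TMM-scaled counts, replicate 2 over replicate 1, for the 9 detected genes, with exact 95% counting intervals as bars, dashed lines at 2-fold and the central 95% of genes above a mean count of 50 in grey. All points lie within the grey band, and the bar of Chrm1 alone does not reach 0.

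The annotation gives the 10 genes 38 transcripts, of which 11 had no count in either library or layout. For 9 genes the same transcript led in both libraries and both layouts. Chat was the exception, on 2 counts. Chrm4 and Chrm5 have 1 transcript each, and Chrm2-202, Chrna7-201 and Chrnb2-201 took over 91% of their gene in each library and layout. Chrna7-201 took 96.3% and 97.7%, and the rest went to Chrna7-202, a transcript without a coding sequence, at 3.71% and 2.34%. Chrnb2-201 took 97.5% and 94.9%, and Chrm2-202 took 100% and 91.2%. The rest of Chrm2 in replicate 2 rested on 2.63 estimated counts of Chrm2-201, under the floor of 3 counts. In the kallisto layout Chrm2-202 took 100% in both libraries.

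Chrm1, Chrm3, Chrna4 and Ache were divided among more transcripts. Chrm1-201 took 72.5% of the gene in replicate 1 and 70.4% in replicate 2, and Chrm1-202, which runs on for 2020 further bases at the 3′ end, took 26.1% and 27.2%. In the kallisto layout Chrm1-201 took 63.5% and 63.0% and Chrm1-202 took 21.4% and 22.6%. The third transcript, Chrm1-203, took 15.1% and 14.4% there, against 1.31% and 2.40% in the RSEM layout. Chrm3-202 took 84.5% and 79.8%. Chrm3-201, a model that holds only the coding sequence, took 13% and 17.5% in the RSEM layout and 23.7% and 28.3% in the kallisto layout. Chrna4-201 took 88.7% and 86.9%, and 76.4 ± 0.233% in the kallisto layout. For these genes the layouts gave the same leading transcript with a different share.

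Ache differed most between the layouts. Ache-201 took 56.1% and 52.1% in the RSEM layout and 79.0% and 75.7% in the kallisto layout. Ache-202 took 27.7% and 31.3% in the former and under 0.05% in the latter. The pair have identical coding bases and differ by 3 bases at the start of exon 2, by 7 at the 5′ end and by 6 at the 3′ end. Together they took 83.8% and 83.4% of the gene in the RSEM layout. Ache-208, which retains an intron, took 13.7% and 14.8% in the RSEM layout and 17.5% and 18.5% in the kallisto layout, and so had a similar share in both.

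**Figure D3:**
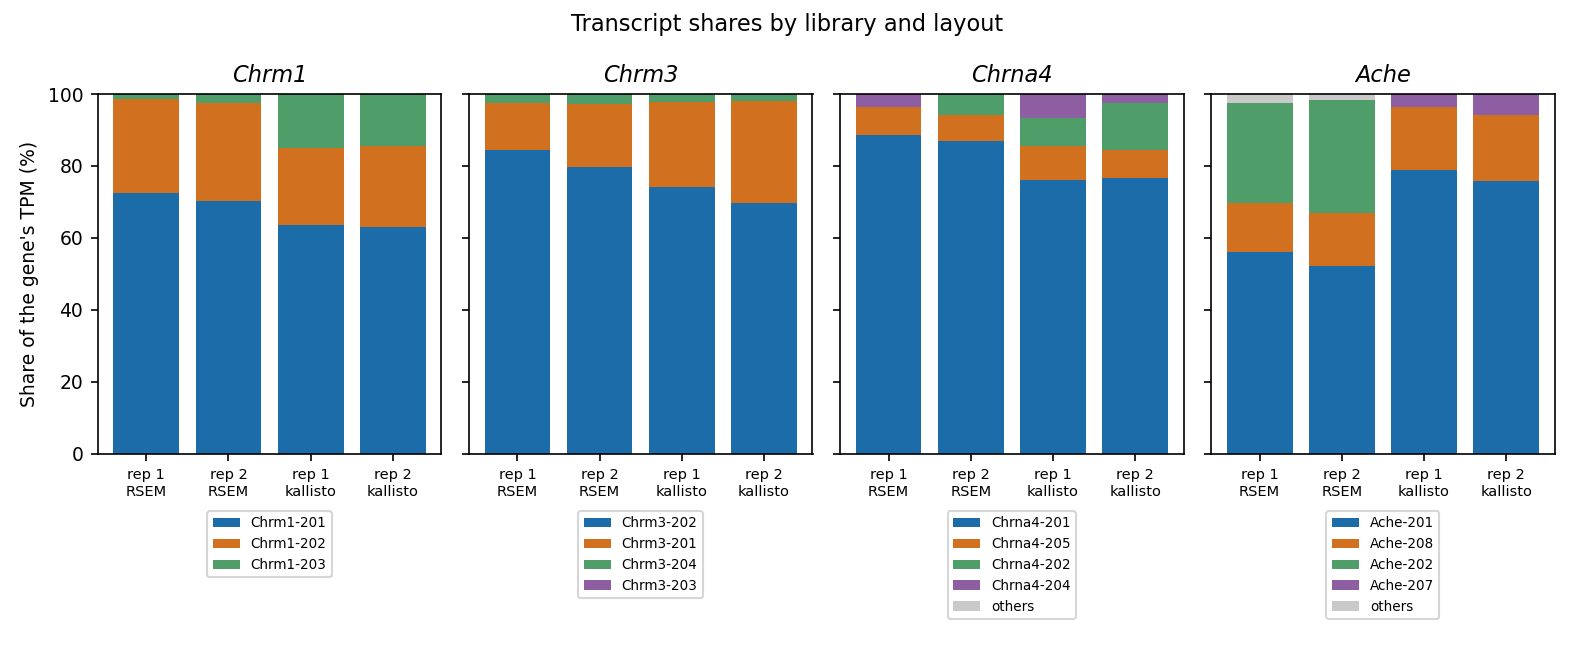
Share of each gene's TPM taken by its transcripts, in percent, for Chrm1, Chrm3, Chrna4 and Ache, with 1 stacked bar per library and layout. The blue leading transcript is the same in all 4 bars of each gene, and the green block of Ache-202 is present in the RSEM bars and not visible in the kallisto bars.

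Around these genes, 51 others of cholinergic transmission were read in 5 lists. Of them 35 were detected, where 57.8% of all protein-coding genes were. Of the 34 whose mean count reached 50, 0 differed over 2-fold between libraries, near the 0.384% of all genes with that count. Of the other nicotinic subunits, 1 of 13 was detected. It was Chrna5, an accessory subunit of channels with Chrna4 and Chrnb2, at 3.33 and 2.91 TPM, from 167 and 157 counts. The muscle subunit gene Chrnb1 followed at 0.21 and 0.27 TPM and Chrna2 at 0.14 TPM in each library, whereas Chrnd and Chrng had 0 counts in both. Chrna4, Chrna7 and Chrnb2 thus held 90.2 ± 0.0848% of the TPM of all 16 nicotinic subunit genes, and 87.6 ± 0.748% in the kallisto layout.

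Genes that handle acetylcholine and choline were detected in 4 of 7 cases. Chka, the kinase that commits choline to phospholipid synthesis, was at 34.6 and 31.1 TPM, and Slc44a1, a choline transporter of many cell types, at 30.6 and 26.6 TPM. Prima1, the membrane anchor of acetylcholinesterase in brain, was at 1.13 and 1.41 TPM, from 25 and 30 counts. Ache exceeded Prima1 17.5 ± 3.17-fold, and 11.4 ± 0.0295-fold in the kallisto layout, so this ratio depends on the layout. The following were named after their values were seen. Bche, the second cholinesterase gene, was at 1.29 and 1.15 TPM. Ache exceeded Bche 18.0 ± 1.00-fold, and 15.8 ± 0.14-fold in the kallisto layout. The undetected genes were Slc18a3, Slc5a7, the high-affinity choline transporter, at 15 and 20 counts, and Colq, the collagen tail of the enzyme at muscle endplates, at 13 and 14 counts.

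Assembly factors and modulators of nicotinic receptors were detected in 8 of 9 cases. The highest were Ly6h at 205.8 and 191.8 TPM, Ly6e at 119 and 120.3 TPM and Lynx1 at 92.6 and 88.9 TPM, membrane-anchored proteins of the Ly6 family, of which Lynx1 and Ly6h dampen nicotinic currents. Rapsn, which clusters receptors at the muscle endplate, was lowest at 0.23 and 0.08 TPM. Ric3 and Tmem35a, chaperones that Chrna7 needs for assembly, were named after their values were seen and were at 29.2 TPM in each library and at 21.7 and 21.3 TPM. Both thus lay above Chrna7 itself in both libraries.

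The signalling genes downstream of muscarinic receptors were all detected. Of the Gq list, 12 of 12 were detected with medians of 64.8 and 62.8 TPM in replicates 1 and 2. Prkcb, a protein kinase C gene, was the highest at 299 and 287 TPM, and Itpr1, the calcium release channel, was at 140.3 and 130.1 TPM. Plcb3, a phospholipase C gene, was lowest at 5.80 and 4.95 TPM. Of the Gi list, 10 of 10 were detected with medians of 48.6 and 47.3 TPM. Gnao1, the G protein alpha subunit abundant in brain, led at 264 and 262 TPM, followed by the adenylyl cyclase gene Adcy1 at 144.8 and 138 TPM and Gnai2 at 93.4 and 95.7 TPM, and Gnai3 was lowest at 11.6 TPM in each library. Chrm1, the highest receptor gene, was thus close to the median of its own Gq list, and Chrm4 lay near the lowest gene of the Gi list.

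**Figure D4:**
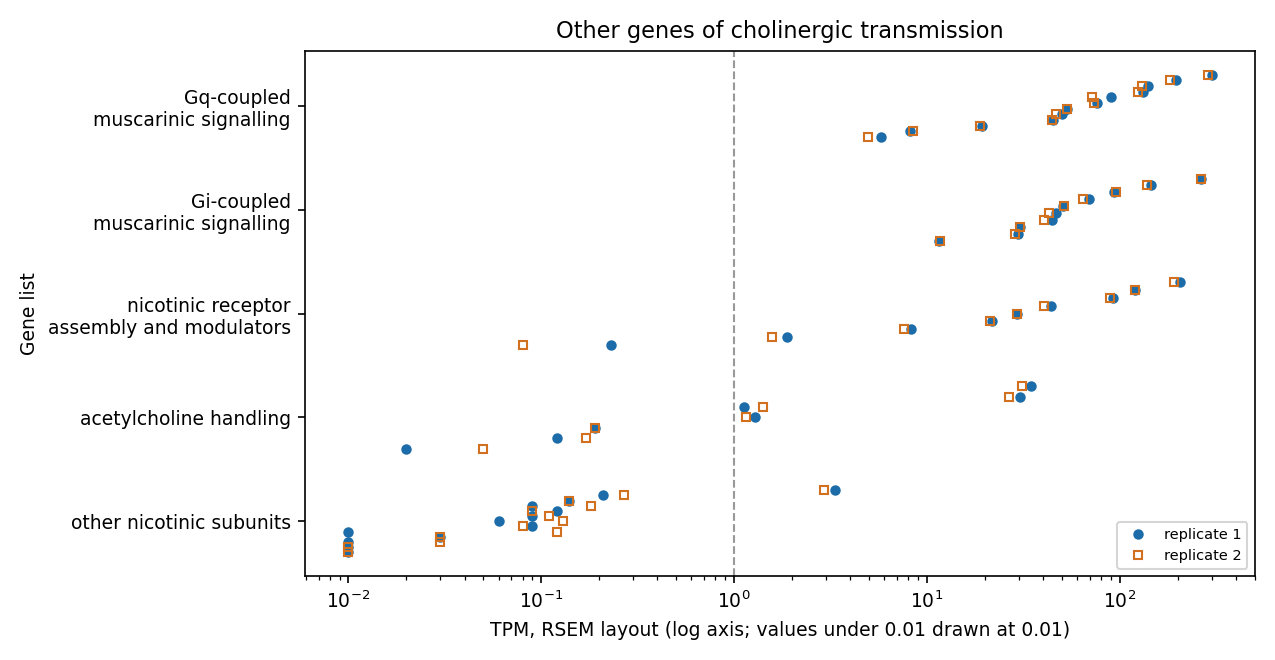
TPM of 51 other genes of cholinergic transmission in 5 lists, on a log axis with 1 point per library; values under 0.01 are drawn at 0.01 and the dashed line marks 1 TPM. All genes of both signalling lists lie above the line, whereas of the other nicotinic subunits Chrna5 alone does.

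Markers of cholinergic neurons lay under 1 TPM in both libraries, as Chat did. Of 7 such genes 0 were detected, and they summed to 1.04 TPM in replicate 1 and 1.36 TPM in replicate 2. Lhx8, a transcription factor of cholinergic neurons of the basal forebrain, had 0 counts in both libraries. Most of that sum came from Ngfr, the low-affinity neurotrophin receptor gene, which other cell types also express, at 0.76 and 0.95 TPM. Its 65 and 87 counts lay above the floor of 3 counts, as did the 15 and 20 counts of Slc5a7. Slc18a3 and Slc5a7 are members of this list and of the acetylcholine handling list. Other brain regions were read by their markers. The medial habenula, where Chat, Chrna3 and Chrnb4 are abundant, had 2 of 5 markers detected, Nwd2 at 7.14 and 7.73 TPM and Tac2 at 2.80 and 3.03 TPM, with Chrna3 and Chrnb4 at or under 0.11 TPM. Striatal markers, of interest for Chrm4 and Ache, were detected in 5 of 6 cases with sums of 39.9 and 37.9 TPM, most of it Ppp1r1b, which the hippocampus also expresses. Neocortical markers were detected in 5 of 5 cases with sums of 67.1 and 72.7 TPM, all 5 higher in replicate 2, and thalamic markers in 5 of 5 with sums of 25.6 and 26.9 TPM, 4 of them higher. Detection held for 57.8% of all protein-coding genes, so it does not by itself place a region in the sample. The part of other regions in the levels of the 10 genes was not tested.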

How the data were processed

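RNA was sequenced from 2 libraries with reduced ribosomal RNA and added ERCC spike-ins, per the labels. The deposited RSEM-layout tables give expected counts, TPM, FPKM and the percent of a gene's abundance taken by each transcript. The deposited kallisto-layout tables give estimated counts and TPM. The authors' lower and upper bounds of each gene's TPM are in TPM, classed as a signal because a column of bounds need not sum to the total of TPM, and the file headers give no credibility level. Notes deposited with the tables name mm10 as the build and GENCODE M21 as the annotation, so reads of both parental strains were quantified against the C57BL/6J reference. For the aligner and the program versions, and for how strand was counted, the answer is not given in the sources used here.

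Expected counts were rounded, and 26345 rows of spike-ins or without a gene name were left out. ERCC rows held 0.493% and 0.489% of counts. Kallisto-layout values were summed per gene, and 86 genes had none. Counts were divided by 0.988 and 1.01, the effective library sizes (library total times TMM factor) relative to their geometric mean. The TMM factors came from edgeR 4.0.16 under R 4.3.3, which gave a biological coefficient of variation of 4.66% from 17697 genes. A ratio was called over 2-fold with a mean count of at least 50. Intervals are exact 95% binomial intervals that take the sum of both counts as given. They and the floor of 3 counts reflect counting error alone. Other software was matplotlib 3.10.9, scipy 1.17.1, numpy 2.4.6, pandas 2.3.3 and Python 3.11.15. In simulated data for replicate 2 over replicate 1, on 55536 genes, 100% of 200 genes changed 4-fold were recovered, and 5 unchanged genes were called among 14286 tested. The simulated spread was a set value larger than 4.66%, and the changed genes all had means of at least 50. A 4-fold change lies far beyond the 2-fold limit, so recovery of changes near that limit was not tested.

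Named were all 10 genes, and from each pathway list the 3 highest members, the lowest and any over 2-fold apart. Of transcripts, the leading one and those with at least 20% of their gene in the mean of both libraries were named. A gene within this rule is not reported here. Other names in the text were chosen after their values were seen. The 10 genes, the lists and the tests were chosen with earlier results of these data known. Alternatives were DESeq2 1.42.0 size factors, library and ERCC totals, other minimums, FPKM, posterior means, the kallisto layout and each library alone.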

Additional observations from a re-analysis of the deposited data

How the results depend on the processing

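Detection of 9 of the 10 genes was the same at a TPM minimum of 0.5, in FPKM and in the kallisto layout, and 7 were detected at a minimum of 5 TPM. Each library alone gave 9. The 51 pathway genes gave 35 detected in each library alone, 33 in FPKM and 30 at a minimum of 5 TPM. In no setting did any of the detected genes differ over 2-fold. With a mean count of at least 50, 46 to 69 of all genes did under the scalings and count sources tried. The median log2 ratio of the 9 genes ranged from -0.03 with TPM to 0.04 with kallisto-layout counts. TPM itself moved the median of all genes by -0.06, and relative to that shift the direction was unchanged. Of 54 recomputed ratios of single genes 1 moved by more than its counting error, that of Chrm1 to -0.15 with TPM, and no gene was called over 2-fold in either direction. The share of Chrm1 in muscarinic TPM was 68.0% in the kallisto layout and 65.3% to 67.2% in single libraries. The share of Chrnb2 among the nicotinic genes was 32.0% in the kallisto layout, 32.6% with posterior mean TPM and 32.9% to 33.4% in single libraries. The cause was not tested. The leading transcript was the same in both layouts for 9 genes, or for 9 to 10 in single libraries. Of all recomputed values of single genes (levels, ratios and leading transcript shares), 62 moved by no more than their error and 38 by more. The error was the SD of both libraries for levels and shares, and counting error for ratios. Every level in FPKM and in the kallisto layout was among the 38. Those scales differ from RSEM-layout TPM for genes in general, so these moves say little about single genes. Levels of the detected genes were 1.52 to 1.79 times as high in the kallisto layout, against a median of 1.67 for detected protein-coding genes. Depth limits Chat, at 2 counts, and the ratios of Chrm5 and Chrm2. No paired analysis was possible because the labels give 1 group, so no samples can be paired across groups.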
